A study of Homo sapiens with 18 samples.

Results

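The p53 pathway genes described here are 30 genes chosen by symbol from a list. Most of them are genes that p53 is known to switch on or that feed back on it. All 30 were found among the 39368 genes of both count tables. RNA of 2 established human neuroblastoma cell lines, BE2C and Kelly, was sequenced, and the series title places both among MYCN-amplified tumours. In each line the libraries carried the hairpin shAhR-1 or the hairpin shAhR-2, both labelled as knockdowns of the aryl hydrocarbon receptor gene AHR, or the lentiviral vector control pLKO-GFP. Each of these 6 groups held 3 libraries, and the time after infection, any selection and the origin of the libraries from separate cultures are not given in the labels. The p-values therefore reflect how far these libraries spread, and that spread may be technical. Both lines are commonly described as carrying a mutated p53 gene, which is background and was not measured.

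p53 is a transcription factor that is held low by MDM2, a ubiquitin ligase that marks it for destruction, and by MDM4, which covers its activation domain. When DNA damage or other stress frees p53, it binds a pair of short DNA half-sites and switches on genes that halt the cell cycle, repair DNA, adjust metabolism or start apoptosis. MDM2 is itself such a target, which closes a feedback loop. Neuroblastoma is a tumour of the sympathetic lineage, and MYCN amplification is one of its best-known drivers.

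Letters that match the half-sites of p53 occur in the promoters of some of these genes. RefSeq windows on GRCh38.p14, from 250 bases before a gene start to 50 bases after it, were at hand for 25 of the 30 genes, in 37 windows. The 10-base half-site, with a core of CNNG that has A or T at each N, between 3 purines and 3 pyrimidines, has the same form on both strands and was in 6 of the 37 windows (16.2%), against 2329 of all 35116 windows (6.63%). The 30 bases around each match are shown, 5′ to 3′ along the gene, with the half-sites in capitals, because these are the letters in the named promoters that match the p53 motif.
PLK2, chr5:58460199-58460228, minus strand: tggcgggacaAGACTTGCTTcccggccacg
SESN1, chr6:109009018-109009047, minus strand: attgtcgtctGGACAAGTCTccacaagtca
FAS, chr10:88991299-88991328, plus strand: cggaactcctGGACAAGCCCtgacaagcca
DDB2, chr11:47214974-47215003, plus strand: ggtttGAACAAGCCCtGGGCATGTTTggcg
AEN, chr15:88621296-88621325, plus strand: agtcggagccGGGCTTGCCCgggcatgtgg
FDXR, chr17:74872986-74873015, minus strand: gggcaggagcGGGCTTGCCCtgcggagcag
Only the DDB2 window, among these 37, held a full site of 2 half-sites with at most 13 bases between them, and 10 of all 35116 windows did (0.0285%). The core of the site that the aryl hydrocarbon receptor binds, GCGTG on either strand, was in 16 of the 37 windows (43.2%) and in 12832 of all windows (36.5%). A match is a description of these letters, and many p53 sites lie in introns outside such windows.

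The libraries held 32799682 to 45469353 counts. AHR itself was close to the limit of detection. It had 8, 0 and 0 counts with shAhR-1 and 0, 0 and 0 with shAhR-2 in BE2C, against 4, 4 and 6 in the controls, and in Kelly 18, 11 and 22 counts in the libraries labelled shAhR-1 and 0, 4 and 0 with shAhR-2, against 4, 26 and 29. The pooled rate was 0.0655 times the control with shAhR-2 in Kelly (exact 95% interval 0.0173 to 0.177) and at least 5.22-fold lower with shAhR-2 in BE2C, taking 3 counts over the group as the limit of a count of 0. With shAhR-1 the ratio was 0.574 in BE2C (0.209 to 1.47) and 0.952 in the Kelly libraries labelled shAhR-1 (0.641 to 1.41), and both intervals include 1. These intervals cover counting error only and take each count as a separate event. Even numbers made up 68.3% to 72.5% of the counts from 1 to 20, and halved counts were not tried for these ratios. The intervals may therefore be too narrow. The bounds for a count of 0 leave out the counting error of the controls. Single libraries decide these ratios: without shAhR-1 replicate 1 of BE2C the remaining libraries had 0 counts, at least 2.99-fold lower than the controls, and without control 1 of Kelly the ratio of the libraries labelled shAhR-1 was 0.653 (0.438 to 0.974). Without shAhR-2 replicate 3 of Kelly the shAhR-2 ratio there was 0.102, without replicate 2 that hairpin had 0 counts (at least 13.6-fold lower), and without shAhR-2 replicate 3 of BE2C the bound was 3.41-fold. Directions drawn from shAhR-1 rest on the label. Replicate 1 of shAhR-2 in BE2C stood apart from the other shAhR-2 libraries of that line, with a chi-square per degree of freedom of 15.4 and 16.8 against them, where they differed from each other by 3.14. All 10 markers of sympathetic neuroblastoma cells reached 1 CPM in both lines, and 12 of the 13 leukocyte markers stayed under 1 CPM in every library of both lines.

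Between 18 and 22 of the 28 genes that passed the filter on low counts in a line were called in each contrast with the controls, at an adjusted p below 0.05. The test was the quasi-likelihood F test of edgeR, adjusted after Benjamini and Hochberg over all genes tested. With shAhR-1 in BE2C, 8 of 28 rose (28.6%) and 10 fell (35.7%), where 25.2% of all 15732 genes tested rose and 27.1% fell (52.3% in all). With shAhR-2 in BE2C, 14 of 28 rose (50%) and 7 fell (25%), against a background of 38.0% and 37.2% (75.1% in all). The 14 include PHLDA3, which passed the filter in BE2C only through the shAhR-2 libraries. Fallers outnumbered risers with shAhR-1 in BE2C and risers outnumbered fallers with shAhR-2. In the Kelly libraries labelled shAhR-1, 16 of 28 rose (57.1%) and 6 fell (21.4%), against 29.6% and 31.0% of all 15871 genes tested (60.5% in all). With shAhR-2 in Kelly, 8 of 28 rose (28.6%) and 12 fell (42.9%), against 37.2% and 38.2% (75.4% in all). In Kelly risers outnumbered fallers in the libraries labelled shAhR-1 and fallers outnumbered risers with shAhR-2. The balance with shAhR-1 in BE2C was slight, since 15 of the 28 members tested there had a fold change above 0. It is therefore not read as a lean of the members downward. The median log2 fold change of the tested members was 0.05 and 0.10 with shAhR-1 and shAhR-2 in BE2C, and 0.31 and −0.07 in Kelly, beside medians of 0.01, 0.03, 0.00 and −0.01 over all genes. A gene called in either direction was therefore the rule in these contrasts, for members and for the rest alike. Both contrasts of a line share the 3 control libraries, so their values are given side by side and not as separate evidence. Levels are CPM, counts scaled to TMM library sizes, listed for replicates 1, 2 and 3 in that order, and fold changes are log2 values ± SE. In such bulk libraries fewer cells of a type and less RNA per cell cannot be told apart.

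**Figure D1:**
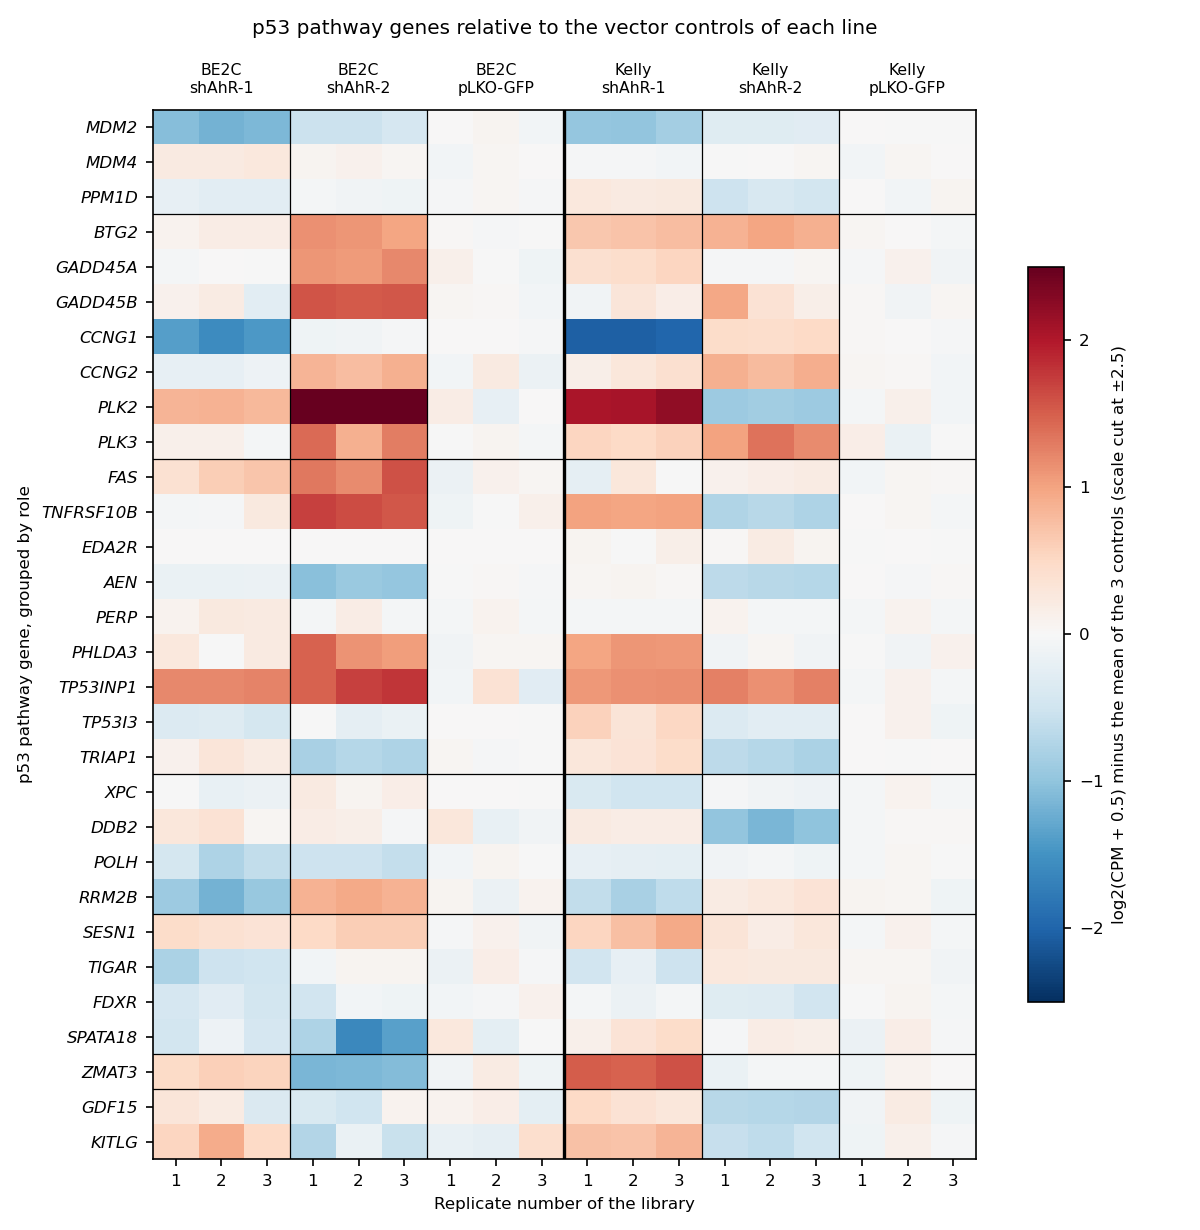
Heatmap of the 30 p53 pathway genes (rows, grouped by role) in the 18 libraries (columns, by group and replicate number). Colour is the log2 of CPM + 0.5 minus the mean of the 3 vector controls of the same line, with the scale ending at ±2.5. MDM2 is below the controls in all 12 hairpin libraries and TP53INP1 above them in all 12, while RRM2B and TRIAP1 lie on opposite sides of the controls with shAhR-1 and shAhR-2 in both lines.

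The feedback regulators did not move together, and MDM2 was the only one of the 3 called in the same direction in all 4 contrasts. MDM2 (chr12:68808176-68850686, plus strand) had 64.8, 59.4 and 61.9 CPM with shAhR-1 and 93.1, 93.4 and 101 CPM with shAhR-2 in BE2C, against 136, 142 and 129 CPM in the controls. In Kelly it had 57.5, 56.8 and 62.5 CPM in the libraries labelled shAhR-1 and 91.5, 92.1 and 93.2 CPM with shAhR-2, against 114, 113 and 112 CPM. Every hairpin library of a line lay below every control of that line, and the shAhR-1 libraries lay below the shAhR-2 libraries in both lines. The fold changes in BE2C were −1.13 ± 0.044 (adjusted p = 9.97e-21) with shAhR-1 and −0.49 ± 0.042 (adjusted p = 2.29e-12) with shAhR-2. In Kelly they were −0.93 ± 0.038 (adjusted p = 2.30e-27) and −0.30 ± 0.036 (adjusted p = 2.02e-10), all by edgeR.

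MDM4 (chr1:204516379-204558120, plus strand) stayed within a narrow range. Its levels in BE2C were 139.8, 139 and 145 CPM with shAhR-1 and 127, 130.0 and 124 CPM with shAhR-2, against 115, 124 and 121 CPM in the controls. Kelly libraries had 172, 173 and 168 CPM when labelled shAhR-1 and 176, 178 and 183 CPM with shAhR-2, against 169, 182 and 178 CPM. The shAhR-1 libraries of BE2C lay above their controls, the shAhR-2 libraries cleared the highest control by under 1 CPM, and the Kelly groups overlapped. MDM4 rose by 0.24 ± 0.036 (adjusted p = 1.49e-06) with shAhR-1 and by 0.09 ± 0.036 (adjusted p = 0.0213) with shAhR-2 in BE2C, and was not called in Kelly, at −0.04 ± 0.032 (adjusted p = 0.285) and 0.02 ± 0.032 (adjusted p = 0.657) (edgeR). The shAhR-2 call in BE2C was lost without control 1 or 3, without any 1 shAhR-1 library, without shAhR-2 replicate 2, or with no filter beyond a total count above 0 (adjusted p up to 0.207). PPM1D, the phosphatase that turns the damage response off, fell with shAhR-1 in BE2C (−0.25 ± 0.045) and with shAhR-2 in Kelly (−0.46 ± 0.042), rose in Kelly libraries labelled shAhR-1 (0.25 ± 0.041) but missed the threshold with shAhR-2 in BE2C (−0.07 ± 0.045).

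Among the 7 genes of cell cycle and growth arrest, 6 of the 7 tested rose with shAhR-2 in BE2C and none fell. With shAhR-1 in BE2C 1 rose and 2 fell, in the Kelly libraries labelled shAhR-1 5 of 6 rose and 1 fell, and with shAhR-2 in Kelly 4 of 6 rose and 1 fell. The shares of all genes that rose and fell, given above, were 38.0% and 37.2% with shAhR-2 and 25.2% and 27.1% with shAhR-1 in BE2C, 29.6% and 31.0% in the Kelly libraries labelled shAhR-1, and 37.2% and 38.2% with shAhR-2 in Kelly, and they apply to each count by role below. Summed levels of marker lists of other cells differed from the controls in several of these groups, and whether such cells were present was not tested. The summed level of the 14 fibroblast markers was 576 to 592 CPM with shAhR-2 in BE2C against 228 to 234 CPM in the controls, with 9 of 11 tested up and 1 down. The summed level of the 10 Schwann cell and glial markers was 84.8 to 89.1 CPM against 22.9 to 26.7 CPM, with 6 of 8 up. With shAhR-1 in BE2C these sums were 265 to 276 CPM and 26.8 to 28.9 CPM. None of these sums overlapped the controls, and the lowest of the last cleared them by under 1 CPM. Of the fibroblast markers COL1A2 and FAP had 5 and 2 counts over all 9 BE2C libraries, and of the Schwann cell markers CDH19 and FABP7 had 0. Most of the Schwann cell and glial sum came from 1 gene, PMP22. It had 19.9 to 67.7 CPM over the BE2C libraries and 14.2 to 68.3 CPM over those of Kelly. In each line 4 of the 10 markers stayed under 1 CPM in every library. In Kelly the Schwann cell and glial sum was 76 to 82.2 CPM with shAhR-2 against 33.5 to 36.4 CPM in the controls, with 5 of 6 up. In the Kelly libraries labelled shAhR-1 it was lower, at 17.7 to 21.1 CPM with 2 of 6 down, and the fibroblast sum was 315 to 336 CPM against 414 to 449 CPM, with 3 of 10 up and 5 down. With shAhR-2 in Kelly the fibroblast sum was 458 to 470 CPM, with 3 of 10 up and 3 down. None of these Kelly groups overlapped the controls. The share of counts on mitochondrial genes in BE2C was 24.3% to 24.9% with shAhR-1 and 20.5% to 25.1% with shAhR-2, against 18.8% to 19.4% in the controls. In Kelly it was 17.4% to 17.7% in the libraries labelled shAhR-1 and 15.2% to 15.8% with shAhR-2, against 14.5% to 15.6%. The part of each of these in the counts of members was not tested.

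PLK2 (chr5:58453982-58460260, minus strand), a polo-like kinase that p53 induces, gave the largest fold changes of the tested members at 1 CPM or more in 2 of the 4 contrasts. In BE2C it had 14.1, 14.4 and 13.7 CPM with shAhR-1 and 53.3, 53 and 51.4 CPM with shAhR-2, against 8.8, 6.54 and 7.71 CPM in the controls. Kelly had 137, 139 and 155 CPM in the libraries labelled shAhR-1 and 17.3, 17.7 and 17.4 CPM with shAhR-2, against 31.7, 35.9 and 31.1 CPM. The groups did not overlap in either line, and the hairpin with the higher PLK2 level was shAhR-2 in BE2C and shAhR-1 by label in Kelly. The fold changes were 0.87 ± 0.084 (adjusted p = 1.19e-10) and 2.79 ± 0.078 (adjusted p = 1.77e-25) in BE2C. They were 2.13 ± 0.048 (adjusted p = 2.07e-38) and −0.92 ± 0.056 (adjusted p = 1.16e-20) in Kelly (edgeR). The 250 bases before its RefSeq start carry the p53 half-site in capitals on the minus strand of chr5:58460087-58460336.
PLK2 upstream: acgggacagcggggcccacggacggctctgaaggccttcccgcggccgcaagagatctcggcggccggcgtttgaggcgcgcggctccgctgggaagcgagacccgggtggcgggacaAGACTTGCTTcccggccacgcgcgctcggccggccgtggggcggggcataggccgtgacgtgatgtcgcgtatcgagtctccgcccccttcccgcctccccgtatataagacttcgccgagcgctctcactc

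CCNG1 (chr5:163437569-163446151, plus strand), the cyclin G1 gene and a long-known p53 target, differed between the hairpins in both lines. It had 38, 33.2 and 36.4 CPM with shAhR-1 and 92.3, 94.4 and 97.7 CPM with shAhR-2 in BE2C, against 100.2, 101 and 98.1 CPM. In Kelly its levels were 28.1, 28 and 29.4 CPM in the libraries labelled shAhR-1 and 161, 159 and 165 CPM with shAhR-2, against 119, 117 and 114 CPM. The shAhR-1 libraries stood far below all others in both lines, and the shAhR-2 libraries of Kelly stood above their controls. The fold change with shAhR-1 was −1.48 ± 0.047 (adjusted p = 4.65e-23) in BE2C and −2.03 ± 0.039 (adjusted p = 3.48e-41) in the Kelly libraries so labelled. With shAhR-2 it was −0.06 ± 0.043 (adjusted p = 0.197) in BE2C, not called, and 0.46 ± 0.033 (adjusted p = 9.78e-18) in Kelly (edgeR). Its relative CCNG2, which slows the cell cycle, rose with shAhR-2 by 0.85 ± 0.079 in BE2C and 0.87 ± 0.060 in Kelly and by 0.29 ± 0.062 in the Kelly libraries labelled shAhR-1. With shAhR-1 in BE2C CCNG2 was called down at −0.20 ± 0.083 (adjusted p = 0.0439) by edgeR, a call lost without control 2, shAhR-1 replicate 1 or 2, or shAhR-2 replicate 2 or 3, and also with a minimum mean of 1 CPM, with only the groups compared in the fit or with a replicate block (adjusted p up to 0.503). Its 2 groups overlapped there.

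PLK3 (chr1:44800225-44805990, plus strand), a stress-responsive polo-like kinase, had the largest fold change among the members tested in Kelly that rose with shAhR-2, within its error of that of TP53INP1. Its levels in BE2C were 3.94, 3.94 and 3.4 CPM with shAhR-1 and 10.4, 7.03 and 9.37 CPM with shAhR-2, against 3.52, 3.73 and 3.4 CPM in the controls. In Kelly they were 7.64, 7.44 and 7.86 CPM in the libraries labelled shAhR-1 and 10.7, 13.8 and 12.3 CPM with shAhR-2, against 5.83, 4.47 and 5.1 CPM. All shAhR-2 libraries were above their controls in both lines, and the shAhR-1 libraries of BE2C overlapped theirs. PLK3 changed by 1.34 ± 0.14 (adjusted p = 2.66e-10) with shAhR-2 in BE2C, 1.25 ± 0.11 (adjusted p = 7.32e-15) in Kelly and 0.58 ± 0.11 (adjusted p = 2.00e-05) in the Kelly libraries labelled shAhR-1, but missed the threshold with shAhR-1 in BE2C at 0.08 ± 0.15 (adjusted p = 0.691) (edgeR). BTG2, an antiproliferative gene that slows entry into S phase, averaged 29.3 ± 1.82 CPM with shAhR-2 in BE2C and 13.6 ± 0.261 CPM in the controls (SD, n = 3 each), a rise of 1.12 ± 0.072, and was not called with shAhR-1 in BE2C (0.16 ± 0.076). It also rose in Kelly, by 0.73 ± 0.048 in the libraries labelled shAhR-1 and 0.92 ± 0.047 with shAhR-2.

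GADD45A and GADD45B, small stress proteins that link damage to MAP kinase signalling, rose with shAhR-2 in BE2C. GADD45A changed by 1.16 ± 0.077 there and by 0.47 ± 0.064 in the Kelly libraries labelled shAhR-1, but missed the threshold with shAhR-1 in BE2C (−0.02 ± 0.081) or with shAhR-2 in Kelly (−0.01 ± 0.065). GADD45B (chr19:2476122-2478259, plus strand) had 3.64, 3.94 and 2.7 CPM with shAhR-1 and 11, 10.6 and 10.8 CPM with shAhR-2 in BE2C, against 3.45, 3.44 and 3.14 CPM in the controls. The shAhR-2 libraries were all above the rest, with a fold change of 1.70 ± 0.13 (adjusted p = 1.52e-13) by edgeR, and the shAhR-1 libraries overlapped the controls at 0.03 ± 0.14. In Kelly GADD45B was nearly silent and not tested, with 0, 6 and 4 counts in the libraries labelled shAhR-1 and 22, 8 and 4 with shAhR-2, against 2, 0 and 2 in the controls. The pooled rate with shAhR-2 was 8.21 times the control (exact 95% interval 2.93 to 31.8, counting error only). Without shAhR-2 replicate 1, which held 22 of the 34 counts, it was 4.22 times the control (1.28 to 17.97).

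**Figure D2:**
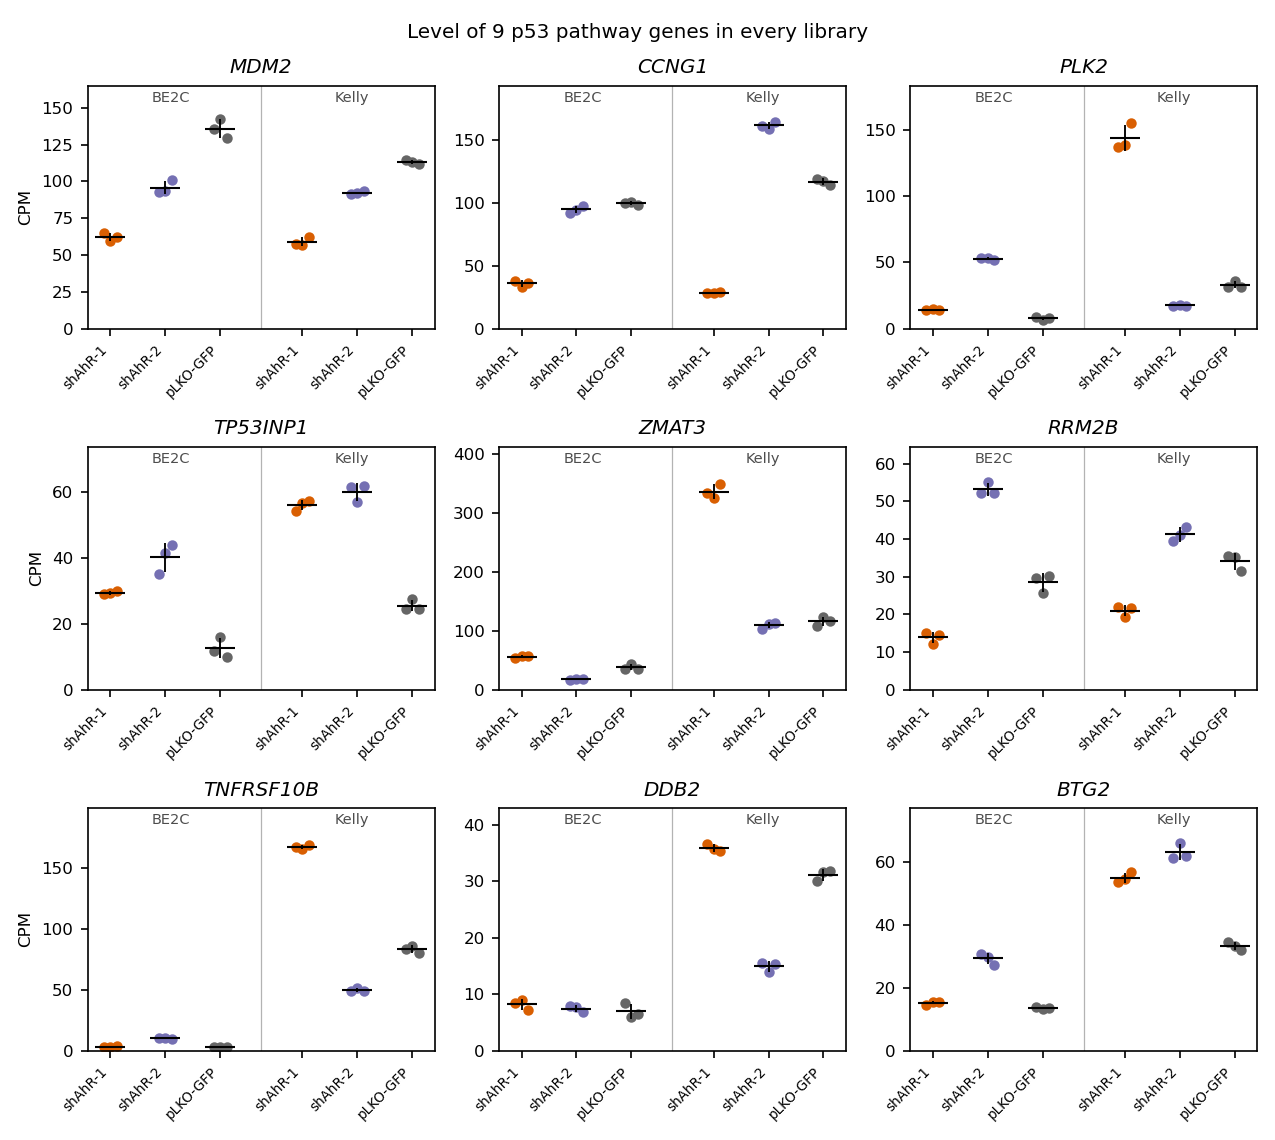
Level of 9 p53 pathway genes in CPM (linear axes from 0) in every library of BE2C and Kelly by group, with points for libraries and bars for the mean ± SD of 3 libraries. PLK2 is highest with shAhR-2 in BE2C and in the libraries labelled shAhR-1 in Kelly, and CCNG1 is lowest with shAhR-1 in both lines.

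Of the 9 genes of death receptors and apoptosis, 3 of 7 tested rose and 2 fell with shAhR-1 in BE2C, 4 of 7 rose and 2 fell with shAhR-2 in BE2C, 5 of 8 rose and none fell in the Kelly libraries labelled shAhR-1, and 1 of 8 rose and 4 fell with shAhR-2 in Kelly. The 4 risers with shAhR-2 in BE2C include PHLDA3, which passed the filter there only through that group. TP53INP1, a stress protein that helps p53 and autophagy, rose in all 4 contrasts with the controls. In BE2C it had 29, 29.2 and 30.03 CPM with shAhR-1 and 35, 41.5 and 43.7 CPM with shAhR-2, against 11.8, 15.9 and 9.99 CPM. Kelly levels were 54.1, 56.6 and 57.2 CPM in the libraries labelled shAhR-1 and 61.5, 56.8 and 61.6 CPM with shAhR-2, against 24.4, 27.4 and 24.5 CPM. No hairpin library overlapped the controls of its line, and replicate 2 was the highest of the 3 controls in both lines. The rises were 1.22 ± 0.10 (adjusted p = 2.46e-12) and 1.68 ± 0.098 (adjusted p = 9.18e-17) in BE2C. In Kelly they were 1.14 ± 0.052 (adjusted p = 2.51e-25) and 1.23 ± 0.051 (adjusted p = 1.63e-27) (edgeR).

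TNFRSF10B, the gene of the TRAIL receptor DR5, was low in BE2C and abundant in Kelly. With shAhR-1 and shAhR-2 in BE2C it had 2.75, 2.81 and 3.45 CPM and 10.5, 9.9 and 9.31 CPM, against 2.6, 2.86 and 3.14 CPM in the controls. Kelly had 167, 165 and 168 CPM in the libraries labelled shAhR-1 and 49.1, 51.4 and 48.8 CPM with shAhR-2, against 83.3, 86.1 and 79.98 CPM. In BE2C the shAhR-2 libraries stood clear of the controls and the shAhR-1 libraries overlapped them, and in Kelly the hairpin groups lay on opposite sides of theirs. TNFRSF10B was not called with shAhR-1 in BE2C, at 0.07 ± 0.15 (adjusted p = 0.744) (edgeR). The other fold changes were 1.80 ± 0.13 (adjusted p = 6.99e-14) with shAhR-2 in BE2C, 1.01 ± 0.035 (adjusted p = 2.95e-30) in the Kelly libraries labelled shAhR-1 and −0.75 ± 0.038 (adjusted p = 4.31e-24) with shAhR-2 in Kelly (edgeR).

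FAS (chr10:88990582-89015785, plus strand), the death receptor for FAS ligand, was under 3 CPM in every library. BE2C libraries had 0.863, 1.11 and 1.2 CPM with shAhR-1 and 2.12, 1.89 and 2.68 CPM with shAhR-2, against 0.45, 0.635 and 0.583 CPM in the controls. Levels in Kelly were 1.92, 2.94 and 2.33 CPM in the libraries labelled shAhR-1 and 2.57, 2.67 and 2.77 CPM with shAhR-2, against 2.19, 2.44 and 2.38 CPM. The hairpin libraries of BE2C lay above the controls, and the Kelly libraries labelled shAhR-1 overlapped theirs. FAS rose by 0.92 ± 0.31 (adjusted p = 0.0141) with shAhR-1 and 2.01 ± 0.29 (adjusted p = 2.46e-07) with shAhR-2 in BE2C and was not called in Kelly, at 0.05 ± 0.19 and 0.19 ± 0.18 (edgeR). The shAhR-1 call was lost without control 1 or without shAhR-1 replicate 3 (adjusted p up to 0.0594). Of its exon bases 380 (8.93%) lie opposite exons of ACTA2, and the strand setting of the counts is not given in the sources used here, so reads of these genes cannot be told apart there. ACTA2 had 6.95, 5.91 and 6.56 CPM with shAhR-1 and 7.83, 9.41 and 7.06 CPM with shAhR-2 in BE2C, against 3.22, 1.1 and 1.85 CPM. Its fold changes there were 1.65 ± 0.20 (adjusted p = 1.57e-08) and 1.99 ± 0.20 (adjusted p = 6.17e-11) by edgeR.

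PHLDA3 (chr1:201464383-201469237, minus strand), which blocks AKT at the membrane, had 6, 1 and 5 counts with shAhR-1 and 42, 30 and 28 counts with shAhR-2 in BE2C, against 0, 2 and 2 counts in the controls. The shAhR-2 libraries stood above all others of the line, at a pooled rate 22.4 times the control (exact 95% interval 8.47 to 83.7), and remained under 1 CPM. PHLDA3 passed the filter in BE2C only through these libraries, so its call there (edgeR, adjusted p = 2.21e-06) is not separate support. With shAhR-1 PHLDA3 was not called (edgeR, adjusted p = 0.192). In Kelly it had 35, 38.2 and 37.6 CPM in the libraries labelled shAhR-1 and 16.5, 17.9 and 16.5 CPM with shAhR-2, against 17.2, 16.5 and 18.7 CPM. The Kelly libraries labelled shAhR-1 stood above their controls, at 1.09 ± 0.064 (adjusted p = 1.20e-20) by edgeR, and the shAhR-2 libraries overlapped them at −0.05 ± 0.068. Of its exon bases 19.1% are shared with another annotated gene on the same strand.

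AEN, a nuclease of apoptotic cells, fell with shAhR-2, at −0.97 ± 0.042 in BE2C and −0.69 ± 0.034 in Kelly, and with shAhR-1 by −0.16 ± 0.041 in BE2C, and was not called in the Kelly libraries labelled shAhR-1 (0.06 ± 0.033). TRIAP1, a small inhibitor of apoptosis, changed by 0.21 ± 0.056 with shAhR-1 and −0.76 ± 0.058 with shAhR-2 in BE2C. In Kelly TRIAP1 changed by 0.37 ± 0.053 and −0.74 ± 0.056, so that it rose in both shAhR-1 groups and fell in both shAhR-2 groups. TP53I3, a quinone oxidoreductase of oxidative stress, fell with shAhR-1 in BE2C (−0.38 ± 0.076) and shAhR-2 in Kelly (−0.31 ± 0.074), rose in Kelly libraries labelled shAhR-1 (0.49 ± 0.072) but missed the threshold with shAhR-2 in BE2C (−0.12 ± 0.075). EDA2R, a receptor of the tumour necrosis factor family, had 0 counts in all 9 BE2C libraries and was not called in Kelly, at 0.08 ± 0.059 and 0.10 ± 0.058. PERP, a membrane protein of epithelia, had 0 to 4 counts in every library of both lines and was not tested.

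The 4 genes of DNA repair and nucleotide supply gave 0 up and 2 down with shAhR-1 and 2 up and 1 down with shAhR-2 in BE2C, and 1 up and 3 down in the Kelly libraries labelled shAhR-1 and 1 up and 1 down with shAhR-2 in Kelly. RRM2B, the p53-induced subunit of ribonucleotide reductase, had 14.9, 12.2 and 14.5 CPM with shAhR-1 and 52.2, 55.1 and 52.2 CPM with shAhR-2 in BE2C, against 29.6, 25.5 and 30.2 CPM. In Kelly it had 21.9, 19.3 and 21.7 CPM in the libraries labelled shAhR-1 and 39.3, 41.1 and 43.2 CPM with shAhR-2, against 35.5, 35.1 and 31.4 CPM. The shAhR-1 libraries lay below and the shAhR-2 libraries above the controls in both lines. The fold changes were −1.03 ± 0.074 (adjusted p = 8.84e-14) and 0.92 ± 0.066 (adjusted p = 3.05e-14) in BE2C. In Kelly they were −0.70 ± 0.061 (adjusted p = 2.56e-14) and 0.27 ± 0.057 (adjusted p = 4.21e-05) (edgeR).

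DDB2 (chr11:47214465-47239240, plus strand), which recognises ultraviolet damage and whose window above held the full p53 site, had 8.47, 8.93 and 7.11 CPM with shAhR-1 and 7.83, 7.7 and 6.76 CPM with shAhR-2 in BE2C, against 8.42, 6.0 and 6.39 CPM. The Kelly levels were 36.6, 35.6 and 35.4 CPM in the libraries labelled shAhR-1 and 15.6, 13.9 and 15.3 CPM with shAhR-2, against 29.9, 31.7 and 31.7 CPM. All groups of BE2C overlapped, while in Kelly the shAhR-2 libraries lay below the controls and the libraries labelled shAhR-1 above them. It fell with shAhR-2 in Kelly, at −1.07 ± 0.062 (adjusted p = 1.84e-21), rose in Kelly libraries labelled shAhR-1 by 0.21 ± 0.058 (adjusted p = 0.00146), and was not called in BE2C at 0.23 ± 0.13 and 0.11 ± 0.13 (edgeR). POLH, a polymerase that copies past ultraviolet lesions, fell in BE2C, at −0.61 ± 0.063 with shAhR-1 and −0.54 ± 0.063 with shAhR-2. In the Kelly libraries labelled shAhR-1 it fell at −0.22 ± 0.047, but missed the threshold with shAhR-2 in Kelly (−0.08 ± 0.046). XPC, the damage sensor of nucleotide excision repair, fell in the Kelly libraries labelled shAhR-1, at −0.47 ± 0.069, but missed the threshold with shAhR-1 in BE2C (−0.11 ± 0.074) or with shAhR-2 in Kelly (−0.09 ± 0.066). With shAhR-2 in BE2C XPC was called up at 0.17 ± 0.072 (adjusted p = 0.0307) by edgeR, a call lost without any 1 control, without shAhR-1 replicate 2 or 3, without shAhR-2 replicate 1 or 3, or with no filter beyond a total count above 0 (adjusted p up to 0.164). Of its exon bases 23.8% lie opposite another annotated gene.

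Of the 4 genes of metabolism and mitochondria, 1 rose and 2 fell with shAhR-1 and 1 rose and 1 fell with shAhR-2 in BE2C, and 2 rose and 1 fell in each hairpin group of Kelly by label. SESN1, a sestrin that restrains mTORC1, rose in all 4 contrasts. It changed by 0.40 ± 0.075 with shAhR-1 and 0.60 ± 0.074 with shAhR-2 in BE2C, and by 0.78 ± 0.075 and 0.26 ± 0.077 in Kelly. TIGAR, a phosphatase that lowers glycolysis, fell in both shAhR-1 groups, at −0.64 ± 0.11 in BE2C and −0.42 ± 0.11 in Kelly by label, but missed the threshold with shAhR-2 in BE2C (0.03 ± 0.10). With shAhR-2 in Kelly TIGAR was called up at 0.25 ± 0.10 (adjusted p = 0.0214) by edgeR, and the call was lost without control 3 or shAhR-2 replicate 1 (adjusted p up to 0.106). Of its exon bases 42.6% are shared with another annotated gene on the same strand, which makes its counts uncertain. FDXR, ferredoxin reductase of mitochondria, fell with shAhR-2 in Kelly, at −0.38 ± 0.061 and was called down with shAhR-1 in BE2C at −0.44 ± 0.15 (adjusted p = 0.0138), a call lost without control 3 (adjusted p = 0.0616, edgeR). The other FDXR contrasts gave −0.21 ± 0.15 with shAhR-2 in BE2C and −0.08 ± 0.061 in the Kelly libraries labelled shAhR-1, neither called.

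SPATA18 (chr4:52051331-52097292, plus strand), which takes part in the turnover of mitochondria, had 1.4, 1.89 and 1.45 CPM with shAhR-1 and 1.03, 0.355 and 0.515 CPM with shAhR-2 in BE2C, against 2.62, 1.71 and 2.08 CPM. In Kelly it had 6.55, 7.72 and 8.46 CPM in the libraries labelled shAhR-1 and 5.85, 6.86 and 6.66 CPM with shAhR-2, against 5.39, 6.79 and 5.88 CPM. The shAhR-2 libraries of BE2C were below the rest of the line and the Kelly groups overlapped. It fell with shAhR-2 in BE2C, at −1.75 ± 0.32 (adjusted p = 8.31e-06) but missed the threshold with shAhR-1 there (−0.44 ± 0.29) or with shAhR-2 in Kelly (0.10 ± 0.12), by edgeR. Its call in the Kelly libraries labelled shAhR-1, at 0.34 ± 0.12 (adjusted p = 0.0117), was lost without control 1 or without shAhR-1 replicate 3 (adjusted p up to 0.101).

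ZMAT3 (chr3:179017223-179072279, minus strand), a zinc finger protein that binds RNA and controls splicing, had 53.5, 57.7 and 56.3 CPM with shAhR-1 and 16.9, 17.3 and 17.8 CPM with shAhR-2 in BE2C, against 35.6, 43.8 and 35.5 CPM. In Kelly it had 334, 325 and 350.1 CPM in the libraries labelled shAhR-1 and 103, 112 and 113 CPM with shAhR-2, against 109, 124 and 117 CPM. The shAhR-1 libraries were the highest of both lines, the shAhR-2 libraries of BE2C the lowest there, and the Kelly shAhR-2 libraries overlapped the controls. The rises with shAhR-1 were 0.54 ± 0.063 (adjusted p = 8.23e-09) in BE2C and 1.54 ± 0.037 (adjusted p = 2.95e-37) in the Kelly libraries so labelled. With shAhR-2 the changes were −1.13 ± 0.068 (adjusted p = 2.70e-16) in BE2C and −0.10 ± 0.038 (adjusted p = 0.0162) in Kelly (edgeR). The Kelly shAhR-2 call was lost without control 2 or shAhR-2 replicate 1, and also with RLE size factors, a minimum mean of 1 CPM or DESeq2's Wald test (adjusted p up to 0.193).

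KITLG, the ligand of the KIT receptor, and GDF15, a secreted stress cytokine, are the secreted members. KITLG averaged 32.3 ± 1.66 CPM in the Kelly libraries labelled shAhR-1 and 12.4 ± 0.584 CPM with shAhR-2, against 18.8 ± 1.68 CPM in the controls (SD, n = 3 each). It changed there by 0.79 ± 0.068 and −0.60 ± 0.074, on opposite sides of the controls. In BE2C, at 0.932 to 4.02 CPM, KITLG was called up with shAhR-1 at 0.75 ± 0.24 (adjusted p = 0.00789) and down with shAhR-2 at −0.64 ± 0.26 (adjusted p = 0.0244) by edgeR. The first call was lost without shAhR-1 replicate 2 (adjusted p = 0.0758) and the second without control 3 or shAhR-2 replicate 1 or 3 (adjusted p up to 0.261). GDF15 reached 1.09 CPM at most and was called down with shAhR-2 in Kelly, at −1.76 ± 0.45 (adjusted p = 0.000501) by edgeR. Its other fold changes were 0.21 ± 0.73 with shAhR-1 and −1.03 ± 0.82 with shAhR-2 in BE2C and 0.63 ± 0.37 in the Kelly libraries labelled shAhR-1, none of them called.

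**Figure D3:**
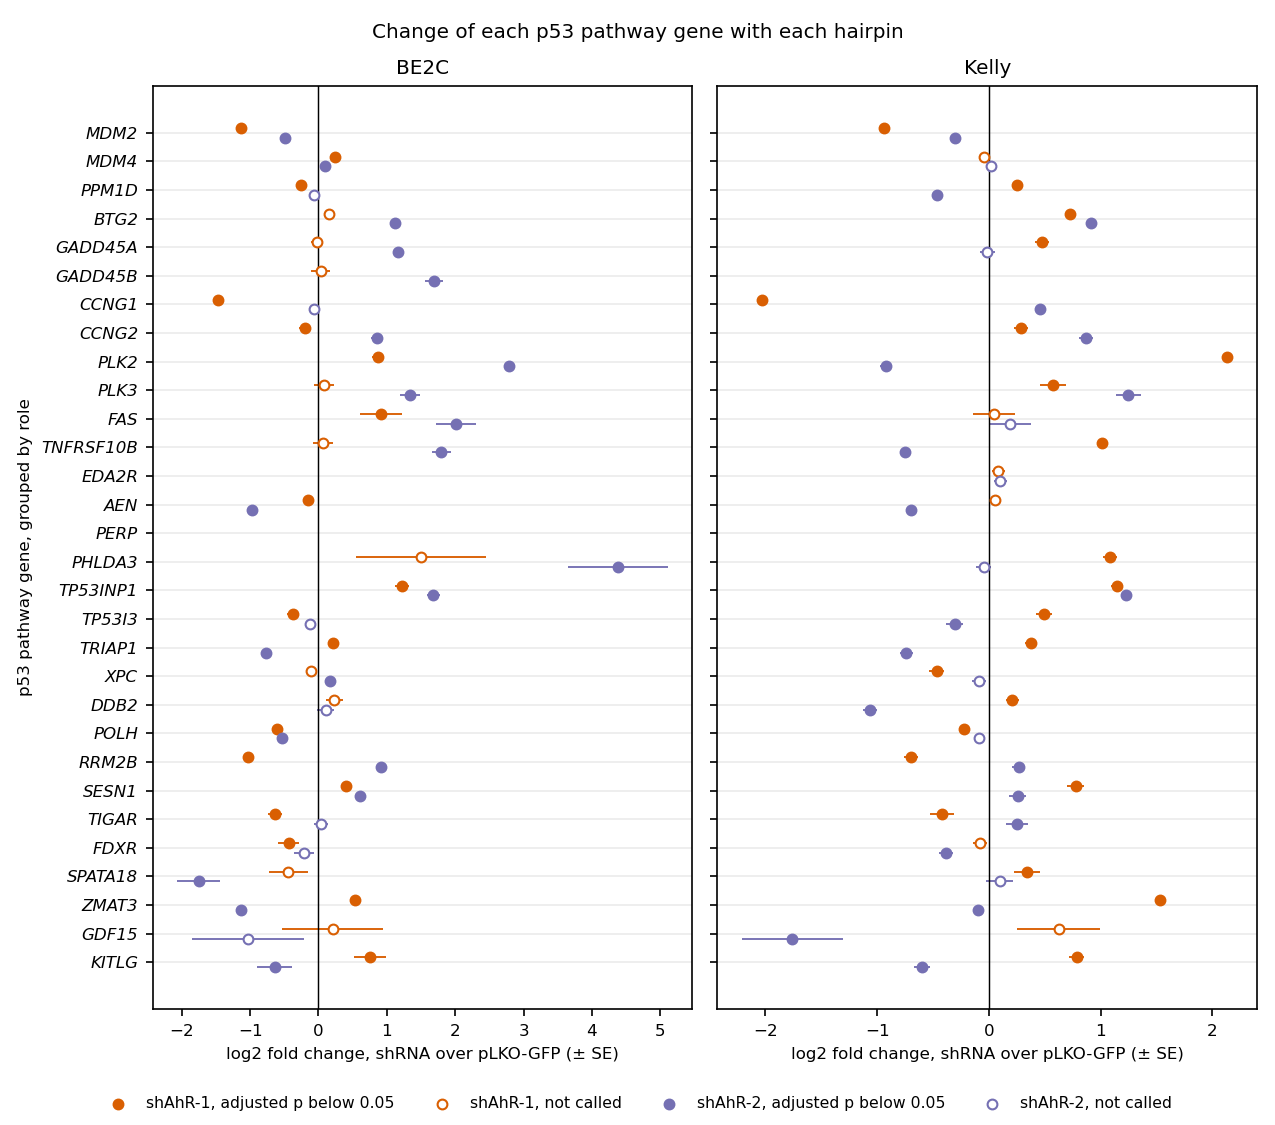
Log2 fold change ± SE of each p53 pathway gene over the vector controls in BE2C (left) and Kelly (right), whose horizontal axes differ in range, with shAhR-1 in orange and shAhR-2 in purple. Filled points have an adjusted p below 0.05 in edgeR, and genes without a point were not tested. MDM2 lies left of 0 and TP53INP1 and SESN1 lie right of 0 for both hairpins in both lines.

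Set directly against each other, the hairpins differed at most of these genes. In BE2C, 6 of 28 members were higher with shAhR-1 than with shAhR-2 and 18 lower, beside 35.9% and 36.5% of all genes tested (72.4% in all), and the members' median log2 difference was −0.37 beside −0.01. In Kelly 14 of 28 were higher in the libraries labelled shAhR-1 and 9 lower, beside 39.3% and 38.2% (77.4% in all), with a median of 0.27 beside 0.01. The controls enter these contrasts only through the shared estimate of the spread, the filter on low counts and the TMM factors. CCNG1 was lower with shAhR-1 in both lines, at −1.41 ± 0.046 in BE2C and −2.49 ± 0.039 in Kelly, as was RRM2B, at −1.95 ± 0.071 and −0.96 ± 0.061. ZMAT3 was higher with shAhR-1, by 1.67 ± 0.067 in BE2C and 1.63 ± 0.037 in Kelly, and KITLG likewise by 1.40 ± 0.25 and 1.39 ± 0.071. TRIAP1 differed by 0.97 ± 0.057 and 1.11 ± 0.055 and AEN by 0.82 ± 0.042 and 0.75 ± 0.034. MDM2 differed by −0.64 ± 0.044 and −0.63 ± 0.038. Each of these 7 genes had the same sign in both lines. Of 27 members tested in both lines, 4 were higher and 8 lower with shAhR-1 in both, which is 14.8% and 29.6% beside 26.9% and 25.0% of all 14680 genes, and 7 were called in opposite directions, which is 25.9% beside 10.9%. All 7 were lower with shAhR-1 than with shAhR-2 in BE2C and higher in Kelly. PLK2 gave −1.91 ± 0.072 in BE2C and 3.05 ± 0.052 in Kelly, TNFRSF10B −1.73 ± 0.13 and 1.76 ± 0.037, and PHLDA3 −2.89 ± 0.61 and 1.13 ± 0.064. In BE2C PHLDA3 passed the filter only through the shAhR-2 libraries, so its BE2C difference is not separate support. GADD45A gave −1.18 ± 0.077 and 0.49 ± 0.064, TP53I3 −0.26 ± 0.076 and 0.80 ± 0.073, PPM1D −0.18 ± 0.045 and 0.72 ± 0.042, and SESN1 −0.20 ± 0.072 and 0.52 ± 0.074. The SESN1 call in BE2C was lost without shAhR-1 replicate 3 or shAhR-2 replicate 2 or 3 (edgeR, adjusted p up to 0.0693). GDF15 differed by 2.38 ± 0.44 (adjusted p = 3.08e-06) in Kelly and was not called in BE2C at 1.24 ± 0.80 (adjusted p = 0.167) (edgeR).

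The vector controls showed how far the lines differ before any hairpin. Of 29 members tested, 4 were higher and 22 lower in BE2C than in Kelly, where 37.2% of all 17136 genes tested were higher and 39.0% lower (76.2% in all), and the members' median log2 difference was −0.56 beside −0.03. Line and deposited table are the same split, so a difference of line and of table cannot be told apart. EDA2R had 0 counts in the 3 BE2C controls and 29, 29 and 28.9 CPM in the Kelly controls, at least 1163-fold lower in BE2C with 3 counts over the group as the limit (767-fold without BE2C control 2). PHLDA3 had 4 counts in the BE2C controls and 2191 in the Kelly controls, a rate ratio of 0.00191 (exact 95% interval 0.000519 to 0.00489). GADD45B went the other way, with 403 counts in the BE2C controls and 4 in the Kelly controls, a ratio of 105 (40.8 to 388). These 3 genes were on in 1 line and at or near the limit of detection in the other. EDA2R and GADD45B are among the 29 and passed the filter only through the line where they were on.

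Receptors and the ligand KITLG were lower in BE2C. The control levels of TNFRSF10B given above differed by −4.86 ± 0.070 (adjusted p = 1.95e-45), those of KITLG by −3.28 ± 0.14 and those of FAS by −2.06 ± 0.25 (edgeR). Of the 4 genes of DNA repair and nucleotide supply 3 were lower in BE2C, beside 39.0% of all genes tested. DDB2 differed most, at −2.16 ± 0.092, and POLH was not called at 0.11 ± 0.055. The call of XPC, at −0.25 ± 0.070, was lost with a replicate block or with no filter beyond a total count above 0 (edgeR, adjusted p up to 0.212). Of the 4 genes of metabolism and mitochondria 2 were lower, beside the same 39.0% and so near it, among them FDXR at −2.53 ± 0.093. SESN1 was not called at −0.06 ± 0.082. ZMAT3 differed by −1.60 ± 0.052 and PLK2 by −2.10 ± 0.073. TIGAR was higher in BE2C, with 11.1, 14 and 12 CPM in BE2C controls and 8.75, 8.73 and 7.87 CPM in Kelly controls, groups that do not overlap, at 0.55 ± 0.10 (adjusted p = 7.17e-06) (edgeR). MDM2 was higher too, by 0.26 ± 0.040 (adjusted p = 7.48e-08), and TP53I3 by 0.18 ± 0.076 (adjusted p = 0.0273), the last of which was lost without BE2C control 2 or Kelly control 3 (adjusted p up to 0.134). The call of GDF15 as lower in BE2C, at −1.53 ± 0.59 (adjusted p = 0.0178), was lost without BE2C control 3 or Kelly control 2 (adjusted p up to 0.204), and that of PPM1D, at −0.12 ± 0.043 (adjusted p = 0.00904), without BE2C control 1 or Kelly control 3, with RLE size factors, with either other filter or with DESeq2's Wald test (up to 0.581). Per kilobase of exon, CCNG1 was the highest member in both lines, at 32.2 CPM per kb in BE2C controls and 37.8 in Kelly controls, followed by TRIAP1 at 27.9 and 25.8 and AEN at 16.3 and 20.4.

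**Figure D4:**
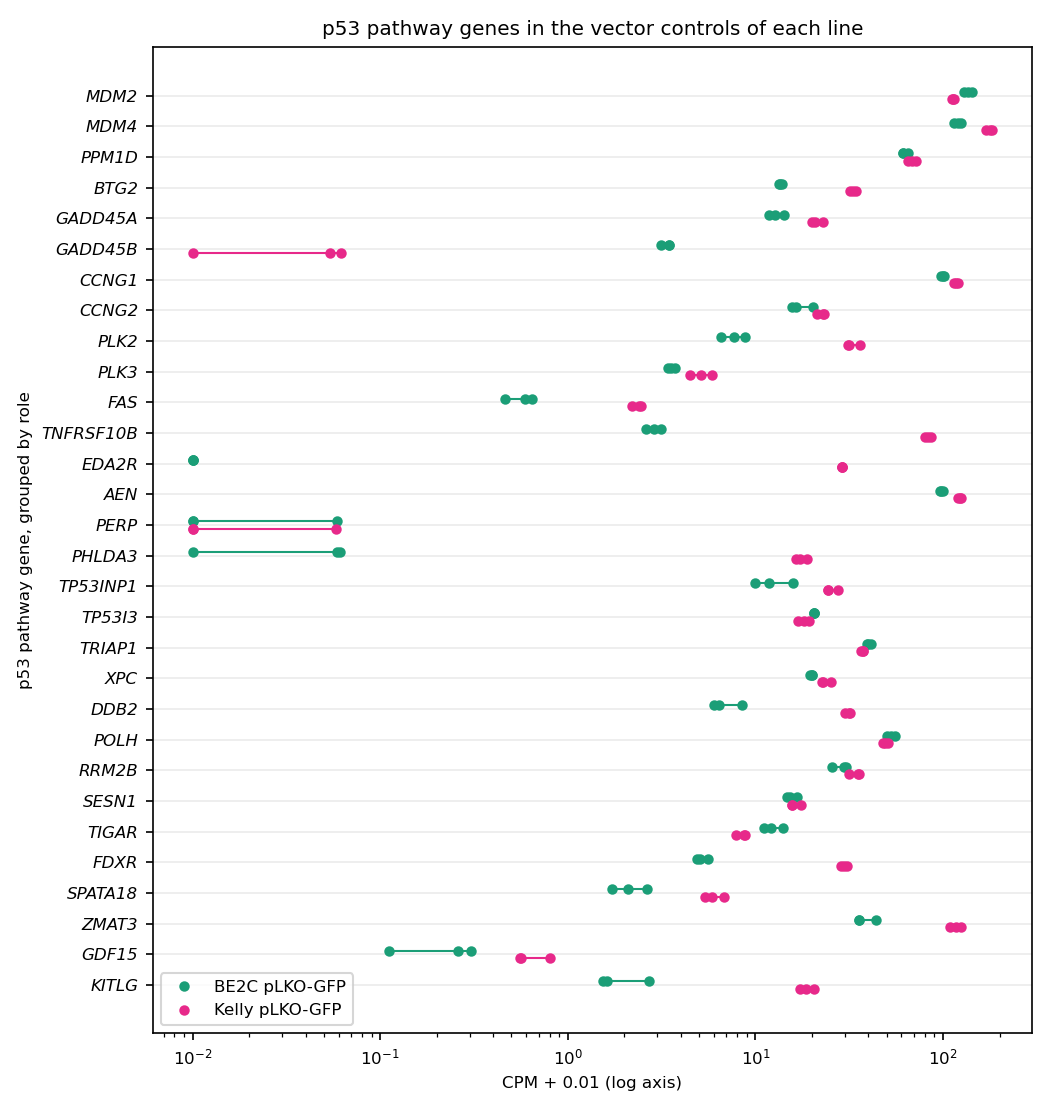
Level of each p53 pathway gene in the 3 vector controls of BE2C (green) and of Kelly (pink), as CPM + 0.01 on a log axis, with a line from the lowest to the highest library. EDA2R and PHLDA3 are near the left edge in BE2C and between 10 and 100 CPM in Kelly, GADD45B shows the reverse, and PERP is near the left edge in both.

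Whether a hairpin acted differently in the lines was tested as a difference of its effects, in 1 fit of all libraries. For shAhR-1 the BE2C effect was above the Kelly effect at 4 of 29 members and below it at 16, beside 17.5% and 18.2% of all genes (35.7% in all). For shAhR-2 it was above at 11 and below at 6, beside 28.8% and 25.8% (54.7% in all). The 29 include EDA2R, with 0 counts in all 9 BE2C libraries, and GADD45B, nearly silent in Kelly. Both passed the filter only through the other line, so their differences of effect are not informative. With shAhR-1, PLK2 rose less in BE2C than in Kelly, a difference of −1.25 ± 0.10 (adjusted p = 1.61e-14), and so did ZMAT3, at −0.99 ± 0.072 (adjusted p = 7.13e-16) (edgeR). CCNG1 fell less in BE2C, a difference of 0.56 ± 0.061 (adjusted p = 1.18e-10) by edgeR. FAS gave 0.88 ± 0.35 (adjusted p = 0.0458), which was lost in 15 of the 26 alternatives, among them those without BE2C control 1 or 3, BE2C shAhR-1 replicate 2 or 3, Kelly control 2 or 3, Kelly shAhR-1 replicate 1 or 3, or any 1 Kelly shAhR-2 library (adjusted p up to 0.125). With shAhR-2, PLK2 at 3.69 ± 0.096 (adjusted p = 1.77e-33) and TNFRSF10B at 2.53 ± 0.099 (adjusted p = 1.68e-26) had the higher effect in BE2C, and SPATA18 at −1.87 ± 0.29 (adjusted p = 3.57e-07) and ZMAT3 at −1.05 ± 0.078 (adjusted p = 2.46e-16) the lower effect there (edgeR). The fitted difference of PHLDA3, at 4.41 ± 0.48 (adjusted p = 6.25e-11) by edgeR, was higher in value, but it rests on 100 counts with shAhR-2 and 4 in the controls of BE2C. PHLDA3 averaged over 1 CPM only through Kelly and was under 1 CPM in every BE2C library. PLK2 and TNFRSF10B rose with shAhR-2 in BE2C and fell with it in Kelly.

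The contrasts of the lines share no library, so calls can be set side by side. With shAhR-1, of 27 members tested in both lines 6 rose in both (6 of the 8 risers of BE2C and of the 16 of Kelly), 5 fell in both (of 10 and of 6) and 3 were called in opposite directions, which is 22.2%, 18.5% and 11.1% beside 16.1%, 19.2% and 5.55% of all 14680 genes tested in both. With shAhR-2, 6 rose in both (of 13 and of 8), 5 fell in both (of 7 and of 12) and 2 were opposite, which is 22.2%, 18.5% and 7.41% beside 25.0%, 28.0% and 10.4%. The shAhR-1 risers of both lines were PLK2, TP53INP1, TRIAP1, SESN1, ZMAT3 and KITLG, and the fallers MDM2, CCNG1, POLH, RRM2B and TIGAR. With shAhR-2 they were BTG2, CCNG2, PLK3, TP53INP1, RRM2B and SESN1, and MDM2, AEN, TRIAP1, ZMAT3 and KITLG.

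**Figure D5:**
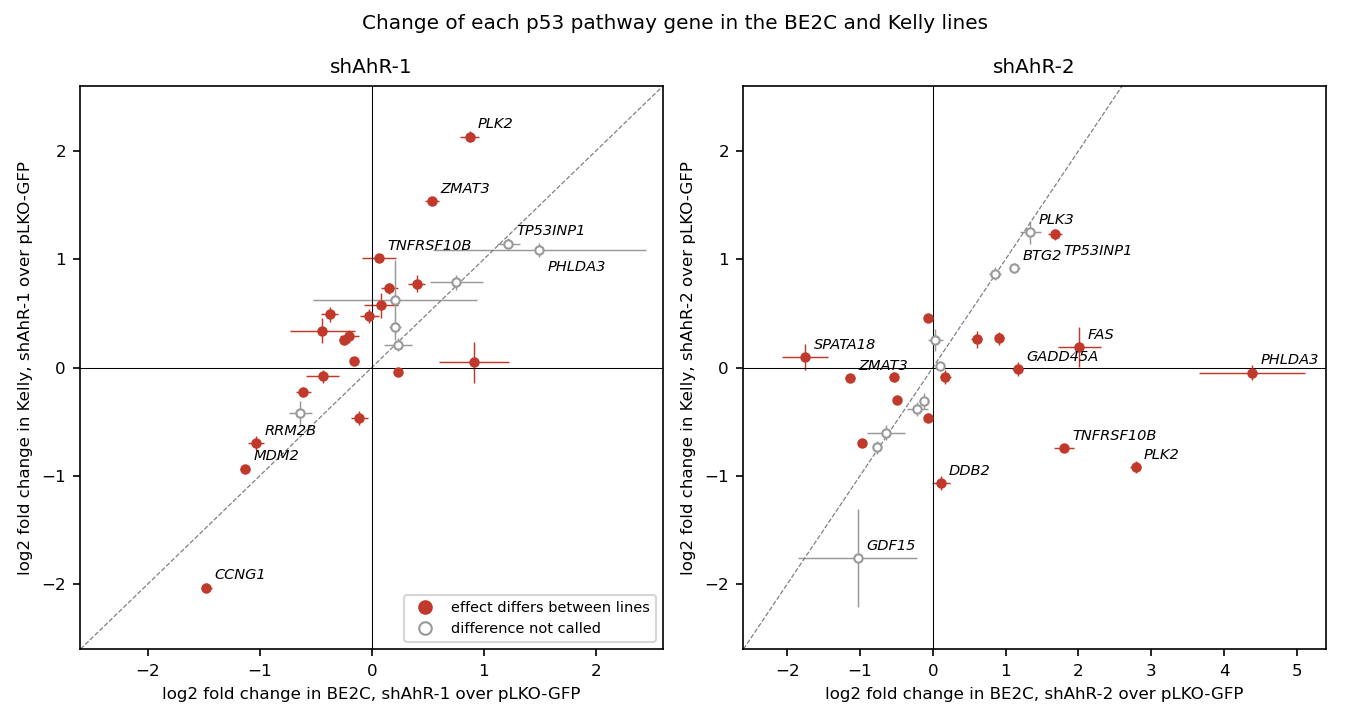
Log2 fold change over the vector controls in BE2C (horizontal axis) against Kelly (vertical axis) for each p53 pathway gene tested in both lines, with shAhR-1 at left and shAhR-2 at right, error bars of 1 SE and a dashed line of equal change. Red points are genes whose effect differed between the lines at an adjusted p below 0.05. PLK2 and TNFRSF10B lie in the lower right of the shAhR-2 panel, up in BE2C and down in Kelly.

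Other genes of the pathway were read from lists. Of 55 other p53 targets tested in BE2C, 20 rose and 16 fell with shAhR-1 (25.2% and 27.1% of all genes did) and 28 rose and 19 fell with shAhR-2 (38.0% and 37.2%). Of 56 in Kelly, 26 rose and 19 fell in the libraries labelled shAhR-1 (29.6% and 31.0%) and 23 rose and 23 fell with shAhR-2 (37.2% and 38.2%). Their median log2 fold changes were 0.13 and 0.27 in BE2C and 0.17 and −0.04 in Kelly. PGF, a placental growth factor, rose with shAhR-2 by 2.69 ± 0.11 in BE2C and 1.54 ± 0.049 in Kelly, and LIF, a cytokine, rose by 1.36 ± 0.096 in the Kelly libraries labelled shAhR-1. E2F7, a repressor of cell cycle genes, changed by −1.43 ± 0.075 and −1.82 ± 0.076 with shAhR-1 and shAhR-2 in BE2C and by −3.82 ± 0.10 with shAhR-2 in Kelly, where PMAIP1, the gene of the apoptosis protein NOXA, changed by −2.09 ± 0.10.

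The cell cycle genes that p53 lowers through the DREAM repressor complex fell together in 3 of the 4 contrasts with the controls. All 22 of them fell with shAhR-1 in BE2C, with shAhR-2 in BE2C and with shAhR-2 in Kelly, at median log2 fold changes of −0.91, −1.25 and −2.01, where 27.1%, 37.2% and 38.2% of all genes fell. In the Kelly libraries labelled shAhR-1, 5 of the 22 rose and 12 fell at a median of −0.15, where 29.6% and 31.0% of all genes did. Their summed level was 1501 to 1524 CPM with shAhR-1 and 1192 to 1225 CPM with shAhR-2 in BE2C, against 2919 to 2957 CPM in the controls. In Kelly it was 1814 to 1853 CPM in the libraries labelled shAhR-1 and 515 to 523 CPM with shAhR-2, against 2033 to 2081 CPM. MAD2L1, a spindle checkpoint gene, changed by −2.50 ± 0.040 with shAhR-1 in BE2C. AURKB, a mitotic kinase, changed by −2.16 ± 0.048 with shAhR-2 in BE2C and −3.45 ± 0.058 in Kelly.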

How the data were processed

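Total RNA was isolated with miRNeasy and libraries were made with RNA HyperPrep and RiboErase, per the labels' protocols. Reads were handled with CASAVA 1.8.2 and STAR 2.7.9a and aligned to GRCh38.p7, per the submitters' processing notes. The authors deposited raw counts per gene in 2 tables, 1 for each line. How reads were counted, with which annotation and strand setting, is not given in the sources used here. Even numbers made up 68.3% to 72.5% of the counts from 1 to 20. The cause of this was not tested, and halved counts were tried as an alternative.

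Each line's 9 libraries were fitted in edgeR 4.0.16 (R 4.3.3, limma 3.58.1) with filterByExpr, TMM, glmQLFit and glmQLFTest, and p-values were adjusted over all genes tested. A fit of all 18 libraries and 6 groups gave the comparison of the controls of the lines and the differences of effect. Levels in CPM use the TMM factors of that fit, so that both lines are on 1 scale, and SE is the log2 fold change divided by the square root of F. DESeq2 1.42.0 was an alternative. Rates of low counts are ratios of pooled counts with exact 95% intervals, and a count of 0 was set to 3 counts over the group for a bound. All such ratios used the counts as deposited, and halved counts were not tried for them. The methods were tested on simulated data.

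The members and all gene lists (other p53 targets, modifiers and partners of p53, cell cycle genes lowered through DREAM, and markers of fibroblasts, leukocytes, Schwann cells and glia, and neuroblastoma) were chosen with earlier results of these data known. All 30 members are accounted for. Values of every library are given for MDM2 and MDM4, for the 4 called members of each contrast with the controls that had the largest fold change, a mean of at least 1 CPM and no overlap with the controls, for the 2 largest differences of effect of each sign per hairpin, and for the 3 largest differences of each sign between the controls of the lines. From the lists at most 2 genes of each direction per contrast with a mean of at least 5 CPM were open to naming. ACTA2 is named for its overlap with FAS, and some genes of the lists are not reported here by name and stay in every count. Gene positions are from GENCODE 29 on GRCh38 and promoter windows from RefSeq. Other work used scipy 1.17.1, pandas 2.3.3 and numpy 2.4.6 in Python 3.11.15, and figures matplotlib 3.10.9.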

Additional observations from a re-analysis of the deposited data

Results flagged for a closer look

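The effect of a hairpin differed between BE2C and Kelly at 20 of 29 members tested with shAhR-1 and at 17 of 29 with shAhR-2. Of all 17136 genes tested 35.7% and 54.7% did so, and the shAhR-2 count was close to that share. The 29 include EDA2R and GADD45B, which passed the filter only through the line where they were on, so their differences are not informative. Calls that held under every alternative were 13 of the 20 and 15 of the 17. The test was edgeR's test of the difference itself in the fit of all 18 libraries. The 2 largest differences of each sign per hairpin, among members with a mean of at least 1 CPM over these libraries, are repeated here with the effect in each line. With shAhR-1, FAS differed by 0.88 ± 0.35, CCNG1 by 0.56 ± 0.061, PLK2 by −1.25 ± 0.10 and ZMAT3 by −0.99 ± 0.072 on the log2 scale. The effects in BE2C were 0.92 ± 0.31, −1.48 ± 0.047, 0.87 ± 0.084 and 0.54 ± 0.063, and those in the Kelly libraries labelled shAhR-1 were 0.05 ± 0.19, −2.03 ± 0.039, 2.13 ± 0.048 and 1.54 ± 0.037, in the same gene order. With shAhR-2, PHLDA3 differed by 4.41 ± 0.48, PLK2 by 3.69 ± 0.096, SPATA18 by −1.87 ± 0.29 and ZMAT3 by −1.05 ± 0.078. The effects in BE2C were 4.38 ± 0.73, 2.79 ± 0.078, −1.75 ± 0.32 and −1.13 ± 0.068, and those in Kelly were −0.05 ± 0.068, −0.92 ± 0.056, 0.10 ± 0.12 and −0.10 ± 0.038. The FAS difference (edgeR, adjusted p = 0.0458) was lost in most of the alternatives, as given above, and FAS had at most 2.94 CPM in any library. Only PLK2 with shAhR-2, among these 8, was called in opposite directions in the lines. PHLDA3 reached that mean only through Kelly. It was under 1 CPM in every BE2C library, with 100 counts with shAhR-2 and 4 in the controls, so its fitted difference is uncertain, and TNFRSF10B was next at 2.53 ± 0.099.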

How the results depend on the processing

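Tried in turn were a minimum mean of 1 CPM, a filter on a total count above 0 alone, RLE size factors, a replicate block, DESeq2's Wald test, halved counts, leaving out mitochondrially encoded genes, fitting only the groups compared, and leaving out each library in turn. That made 17 alternatives for each contrast within a line and 26 for each one across lines. Every count of members called stayed within 1.5 times its value as reported, and no member that was called changed sign under any of them. No size factor, filter or other normalization tried moved the median of all genes by over 0.1 on the log2 scale. With 1 library left out, the members called ranged from 7 to 8 up and 9 to 10 down with shAhR-1 in BE2C, and from 12 to 13 up and 6 to 7 down with shAhR-2. They ranged from 15 to 16 up with 6 down in the Kelly libraries labelled shAhR-1, and from 7 to 8 up and 11 to 12 down with shAhR-2 in Kelly. Between hairpins the ranges were 6 to 7 up and 17 to 19 down in BE2C and 14 to 15 up and 9 to 10 down in Kelly. Between the controls of the lines they were 3 to 6 up and 21 to 22 down, and for the differences of effect 3 to 5 up and 11 to 16 down with shAhR-1 and 9 to 12 up with 6 down with shAhR-2.

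Calls that held under every alternative numbered 14 of 18 with shAhR-1 in BE2C, 18 of 21 with shAhR-2 in BE2C, 21 of 22 in the Kelly libraries labelled shAhR-1 and 18 of 20 with shAhR-2 in Kelly. Between hairpins they were 23 of 24 in BE2C and 23 of 23 in Kelly, between the controls of the lines 22 of 26, and for the differences of effect 13 of 20 with shAhR-1 and 15 of 17 with shAhR-2. Without replicate 1 of shAhR-2 in BE2C, the library that stood apart, 13 members rose and 7 fell with shAhR-2, where 14 and 7 had done so. XPC and KITLG lost their calls there and TP53I3 gained one.

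Replicate numbers did not pair the libraries. Same-numbered libraries correlated between −0.0435 and 0.0447 in BE2C and between −0.0204 and 0.0154 in Kelly in their deviations from the group means, and 0 of the 9 pairs of each line passed 0.1. With a replicate block, 8 members rose and 9 fell with shAhR-1 in BE2C, where CCNG2 was no longer called (adjusted p = 0.0574, edgeR), 14 and 7 with shAhR-2, 16 and 6 in the Kelly libraries labelled shAhR-1 and 8 and 12 with shAhR-2 in Kelly. Pooled rate ratios of genes with few counts were also taken without each library in turn, chosen after seeing the data, and the values that moved by over 1.5 times stand beside the ratios. Members under 1 CPM, such as PHLDA3 and GDF15 in BE2C and GADD45B in Kelly, rest on few counts, and their fitted fold changes are the least certain of those given.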

Other observations

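Genes that modify p53 or work with it were read from a further list. SETD7, a methyltransferase that acts on p53 and on histones, went with the hairpin in both lines, by −1.37 ± 0.040 with shAhR-1 and 1.24 ± 0.036 with shAhR-2 in BE2C, and by −1.56 ± 0.036 in the Kelly libraries labelled shAhR-1 and 1.27 ± 0.031 with shAhR-2 in Kelly. HIPK2, a kinase that phosphorylates p53, rose by 0.57 ± 0.053 with shAhR-1 in BE2C and by 0.49 ± 0.036 in the Kelly libraries so labelled. Set against shAhR-2, HIPK2 was higher with shAhR-1 by 0.83 ± 0.053 in BE2C and 1.83 ± 0.038 in Kelly. CHEK2, of the same list, changed by −0.79 ± 0.068 with shAhR-1 and −1.28 ± 0.069 with shAhR-2 in BE2C. In Kelly CHEK2 changed by −0.86 ± 0.063 in the libraries labelled shAhR-1 and −1.71 ± 0.067 with shAhR-2. TP53BP1, a damage mediator first found as a p53 partner, rose with shAhR-2 by 0.74 ± 0.037 in BE2C and 0.92 ± 0.032 in Kelly. Of the 29 genes of this list that were tested, 2 rose and 12 fell with shAhR-1 and 6 rose and 22 fell with shAhR-2 in BE2C, and 12 rose and 8 fell in the Kelly libraries labelled shAhR-1 and 7 rose and 14 fell with shAhR-2 in Kelly. Of all genes tested 25.2% rose and 27.1% fell with shAhR-1 and 38.0% and 37.2% with shAhR-2 in BE2C, and 29.6% and 31.0% in the Kelly libraries labelled shAhR-1 and 37.2% and 38.2% with shAhR-2 in Kelly. Each of these contrasts within a line uses the same controls, and adjusted p-values are from edgeR.

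The summed level of the 30 p53 pathway genes was 703 to 713 CPM with shAhR-1 and 853 to 868 CPM with shAhR-2 in BE2C, against 817 to 862 CPM in the controls. In Kelly it was 1625 to 1696 CPM in the libraries labelled shAhR-1 and 1203 to 1227 CPM with shAhR-2, against 1244 to 1286 CPM. These sums weigh abundant members most and are not read as a shift of the set. ZMAT3 averaged 336 CPM in the Kelly libraries labelled shAhR-1 and 117 CPM in the controls, while CCNG1 went the other way, at 28.5 and 117 CPM. With shAhR-1 in BE2C MDM2 averaged 62 CPM against 136 CPM in the controls, while ZMAT3 went the other way, at 55.8 and 38.3 CPM. The summed level of the 10 neuroblastoma markers was 5096 to 5173 CPM with shAhR-1 and 2959 to 2978 CPM with shAhR-2 in BE2C, against 5649 to 5837 CPM. In Kelly it was 5426 to 5552 CPM in the libraries labelled shAhR-1 and 6190 to 6276 CPM with shAhR-2, against 10031 to 10758 CPM. The 13 leukocyte markers summed to 6.94 CPM at most, of which CD4 reached 6.31 CPM.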
